A study of Homo sapiens with 8 samples.

Results

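The genes described here are 10 genes of iron handling and of ferroptosis that have been linked to p53: FDXR, SAT1, GLS2, AIFM2, GPX4, ACSL4, TFRC, FTH1, FTL and NCOA4. They were taken by symbol from the 58302 gene rows of the count table, and each symbol was found on a single row. The samples were 8 cultures of HCT116 p53+/+, a human colon cancer cell line that carries unmutated p53. MANIO, a compound whose structure the labels do not give, was applied at 1 µM to 4 biological replicates, and 4 controls received the solvent DMSO, both for 24 hours. The stated purpose was to see whether the compound engages the p53 response. All cultures shared the same line and genotype, so the results describe 1 line.

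Ferroptosis is a form of cell death in which iron drives the peroxidation of membrane lipids. Cells restrain it with the selenoenzyme GPX4, which uses glutathione to reduce lipid peroxides, and with AIFM2 (also called FSP1), which regenerates reduced coenzyme Q. ACSL4 works in the opposite sense by loading membranes with the polyunsaturated fatty acids that are peroxidised. Iron enters the cell bound to transferrin through the receptor TFRC, is stored in ferritin, a shell built from FTH1 and FTL subunits, and is released when NCOA4 carries ferritin to the lysosome. p53 is known to act on this network through target genes such as FDXR, SAT1, GLS2 and AIFM2 and through repression of the cystine importer gene SLC7A11.

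Of the 10 genes, 9 passed the filter on low counts and GLS2 did not. Differences were tested with edgeR (quasi-likelihood, Benjamini-Hochberg adjusted over every tested gene) and called at an adjusted p under 0.05. FDXR and NCOA4 were higher in MANIO, TFRC, GPX4, FTL and ACSL4 were lower, and SAT1, FTH1 and AIFM2 did not pass. The groups did not overlap for 5 of the 9 genes, 2 higher and 3 lower, against 48.3% of all tested genes. The same test called 54.6% of the 15712 tested genes, 27.8% higher and 26.8% lower, so 6 calls among 9 genes (66.7%) are not far from that background. The median log2 fold change (MANIO over DMSO) was -0.03 for the 9 genes and 0.00429 for all tested genes. FDXR was the only one of the 9 that changed at least 2-fold.

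Total counts ranged from 27945196 to 32509020 per library, and levels are given as counts per 1000000 counts (CPM) after trimmed-mean scaling. DMSO replicate 1 stood apart from its group, with 7.48% of its counts in mitochondrially encoded genes against 4.82% to 5.21% in the other DMSO libraries and 6.70% to 7.62% in MANIO. Without that library the same genes were called except ACSL4, with log2 fold changes of 1.61 for FDXR, 0.43 for NCOA4, -0.40 for TFRC, -0.38 for GPX4 and -0.29 for FTL. Whether the mitochondrial share plays a part in the differences was not tested. All 8 epithelial marker genes were found, at mean DMSO levels from 47.1 to 1618 CPM, and 5 of them were called, all higher, with a summed level of 3716 to 3962 CPM in DMSO and 4487 to 5000.4 CPM in MANIO. Of 12 markers of other cell types only COL1A1, PDGFRB and VWF passed the filter, and they were called with log2 fold changes of 0.88, 1.06 and -1.35. The summed level of the 12 was 22.7 to 27.9 CPM in DMSO and 39.9 to 48.1 CPM in MANIO, nearly all of it COL1A1, while PTPRC had 1 count in the 8 libraries together. Whether these markers play a part in the results was not tested. The p53 targets CDKN1A and MDM2, read as a check of the treatment, had log2 fold changes of 2.43 and 1.85.

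**Figure D1:**
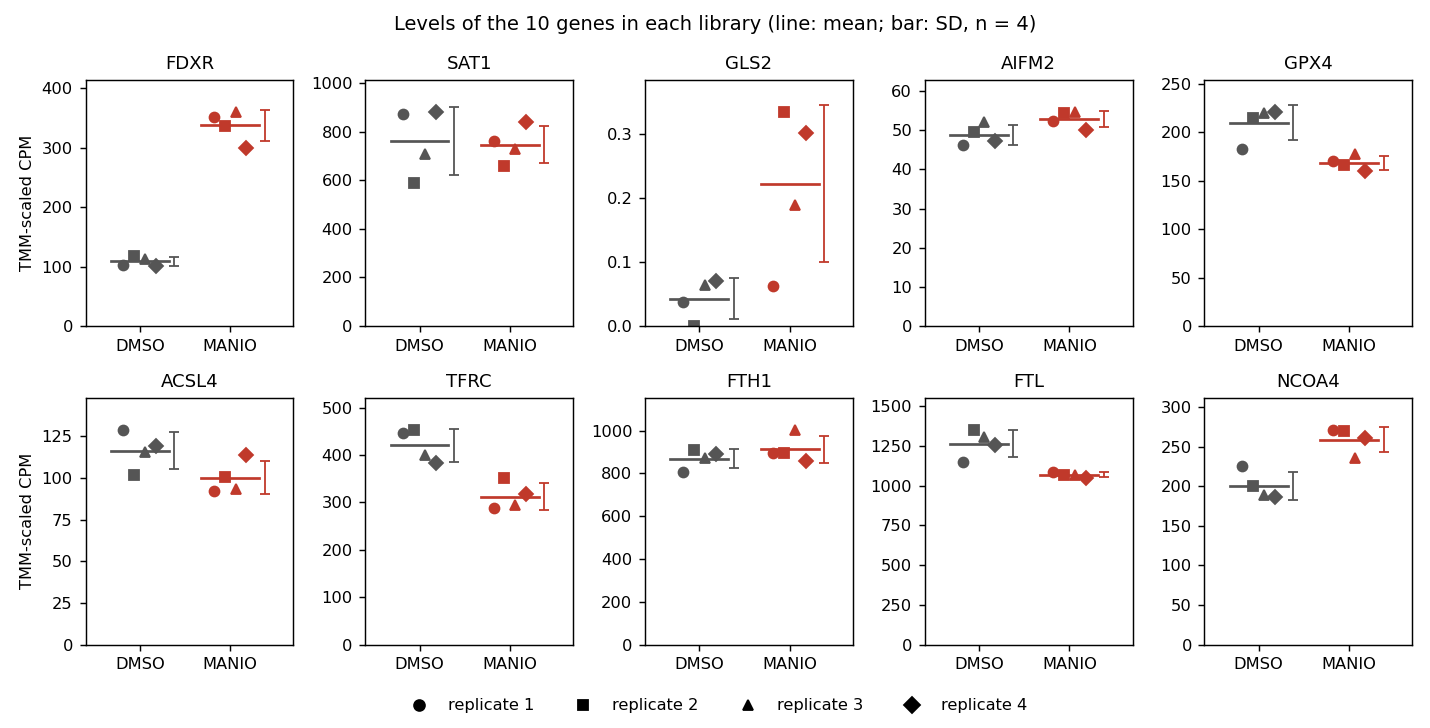
TMM-scaled CPM (vertical axes, each from 0) of the 10 genes in the 4 DMSO and 4 MANIO libraries, with 1 symbol shape per replicate number, the group mean as a line and the SD as a bar. The groups are apart for FDXR, NCOA4, TFRC, GPX4 and FTL, and GLS2 is at most 0.335 CPM in any library.

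The first group holds the genes known as p53 targets, and FDXR was the only one of the 3 tested genes among them that was called. FDXR encodes ferredoxin reductase, the mitochondrial flavoprotein that passes electrons from NADPH to ferredoxin for the building of iron-sulfur clusters and for steroid synthesis. Its level was 103, 117, 112 and 102 CPM in DMSO replicates 1 to 4 and 352, 337, 360.2 and 299.9 CPM in the MANIO replicates. Every MANIO library was far above every DMSO library, and the highest DMSO value was well under the lowest MANIO value. The group means were 109 ± 7.25 and 337 ± 26.7 CPM (SD, n = 4 each), a 3.11-fold difference with a 95% interval from 2.81 to 3.43. The log2 fold change of FDXR was 1.64 (SE 0.0669), with an adjusted p of 7.4e-11 in edgeR's quasi-likelihood test. Only 227 of the tested genes (1.44%) had a larger log2 fold change than FDXR, and 31 had a smaller p.

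FDXR (ENSG00000161513) lies on the minus strand of chromosome 17 at 74862497 to 74873031 (GRCh38), and none of its exonic bases overlap another annotated gene. The sequence before its upstream start site is shown because FDXR had the largest rise of the 9 tested genes and is known to be bound by p53. RefSeq's table (GRCh38.p14) holds 13 windows of 250 bases before to 50 after a start for 9 of the 10 genes, and has none for FTH1. They were searched on both strands for the p53 decamer consensus, the short palindrome that p53 response elements are built from, with no mismatch allowed. A match was present in 6.63% of all 35116 windows of the table. Among the 13 windows, 1 of FDXR and 1 of NCOA4 held a match. The FDXR match covers bases -11 to -2 before the start, at 74872996 to 74873005 on chromosome 17, and is in capitals in the 250 bases upstream of that start (chr17:74872995-74873244, minus strand, 5′ to 3′):
FDXR upstream: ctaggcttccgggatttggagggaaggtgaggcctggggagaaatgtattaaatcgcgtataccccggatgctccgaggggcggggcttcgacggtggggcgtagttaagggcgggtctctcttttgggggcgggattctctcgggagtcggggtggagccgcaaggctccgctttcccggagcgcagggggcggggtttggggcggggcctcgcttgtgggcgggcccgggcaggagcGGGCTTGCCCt
The NCOA4 match, GGGCAAGCCT, lies 25 to 16 bases before the more downstream of the gene's 2 listed starts, at 46020015 to 46020024 on chromosome 10. Each match is 1 decamer and not a whole response element, and is a description of these letters that does not show binding in these cells. A site with a mismatch or outside the windows would be missed, so a gene without a match may still have a site.

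Of the others, SAT1 and AIFM2 did not pass the test and GLS2 was left out of it by the filter. SAT1 (ENSG00000130066; chromosome X, 23783173 to 23786226, plus strand) encodes the acetyltransferase that starts the breakdown of the polyamines spermidine and spermine. Its level was 873, 589.9, 707 and 883 CPM in DMSO replicates 1 to 4 and 763, 658, 729.6 and 839.5 CPM in the MANIO replicates. The DMSO libraries spread more widely than the MANIO libraries and enclosed all 4 of them. The replicates ranked in the same order in both groups, with replicate 2 lowest and replicate 4 highest. The coefficient of variation of SAT1 in DMSO, 18.5%, was the largest of the 9 tested genes, whose others ran from 5.14% to 9.52%. SAT1 had a log2 fold change of -0.03 with a 95% interval from -0.30 to 0.24 and an adjusted p of 0.855 from edgeR. That sign turned positive in 3 of the 8 fits with 1 library left out, and the value ranged from -0.14 to 0.04. A fit with replicate number as a block gave -0.016 (SE 0.0569), against an SE of 0.121 without the block.

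AIFM2 (ENSG00000042286) lies on the minus strand of chromosome 10 at 70098223 to 70132934. Its level was 46.2, 49.6, 52.2 and 47.3 CPM in DMSO replicates 1 to 4 and 52.3, 54.4, 54.7 and 50.2 CPM in the MANIO replicates. The ranges met, since MANIO replicate 4 lay under DMSO replicate 3. The log2 fold change of AIFM2 was 0.12 (95% interval -0.01 to 0.24), and its adjusted p from edgeR was 0.104. The upper end of that interval is a 1.18-fold rise. FDXR had a log2 interval from 1.49 to 1.78, which lies above the whole interval of AIFM2 and that of SAT1.

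GLS2, the liver-type glutaminase gene that p53 induces in several cell types, was at the limit of detection (ENSG00000135423; chromosome 12, 56470944 to 56488414, minus strand). It had 1, 0, 2 and 2 counts in DMSO replicates 1 to 4 and 2, 11, 6 and 9 counts in the MANIO replicates. Replicate 1 of MANIO had the same count as 2 of the DMSO libraries, and the other MANIO libraries lay above all of DMSO. A library with 0 counts is compatible with up to 3, so the level in DMSO is poorly bounded. The mean was 0.0430 ± 0.0321 CPM in DMSO and 0.223 ± 0.123 CPM in MANIO, and an exact two-sided permutation test of that difference gave p = 0.0857 (the smallest possible with 4 against 4 is 0.0286). Fitted with no filter on low counts, the log2 fold change of GLS2 was 2.24 (SE 0.635, edgeR adjusted p = 0.00205). That value depends on how the fit treats counts near 0. The unfiltered fit also gave SAT1 an SE of 0.0756, against 0.121 with the filter. It gave FDXR an edgeR adjusted p of 1.4e-139, against 7.4e-11 with the filter. Its p-values are therefore not comparable with those of the filtered fit. In GLS2, 82.8% of the exonic bases are shared with SPRYD4 on the opposite strand and AC097104.1, a protein-coding gene on the same strand. SPRYD4 had 309 to 423 counts per library. The library kit does not mark strand, so reads from the shared bases cannot be assigned to one of these genes.

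**Figure D2:**
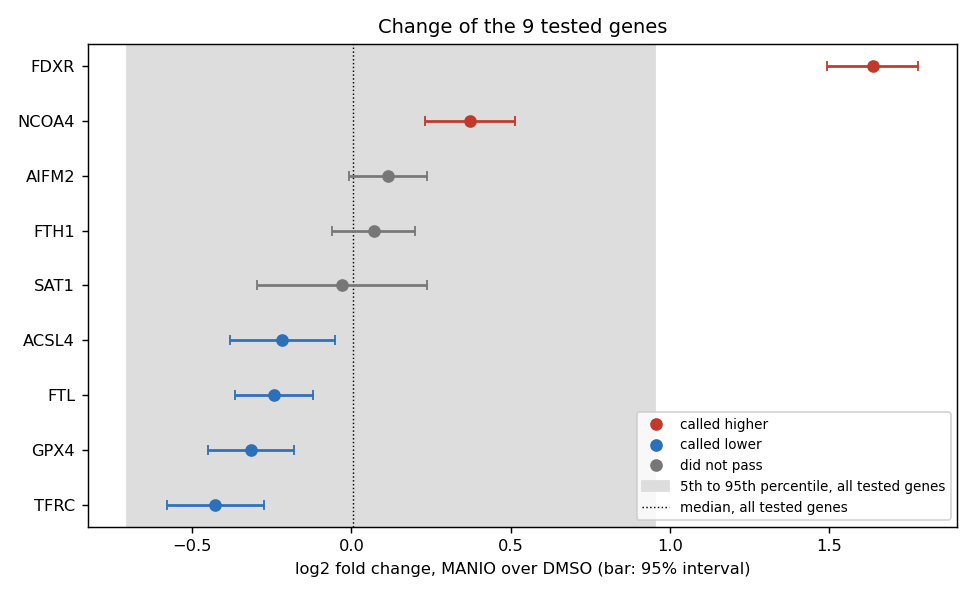
Log2 fold change of MANIO over DMSO (horizontal axis) with its 95% interval for the 9 tested genes, coloured by call, over the range from the 5th to the 95th percentile of all tested genes in grey. FDXR lies outside the grey range at 1.64, and the other 8 genes lie inside it, from -0.43 for TFRC to 0.37 for NCOA4.

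The second group holds GPX4, which removes lipid peroxides, and ACSL4, which supplies the lipids that are peroxidised, and both were lower in MANIO. GPX4 (ENSG00000167468) lies on the plus strand of chromosome 19 at 1103926 to 1106791. Its level was 183, 215, 220.2 and 221 CPM in DMSO replicates 1 to 4 and 171, 166, 178 and 160.0 CPM in the MANIO replicates. All MANIO libraries lay under all DMSO libraries, but DMSO replicate 1 was much nearer to them than the other DMSO libraries were. GPX4 fell by 0.32 on the log2 scale (SE 0.0633; 95% interval -0.45 to -0.18), with an edgeR adjusted p of 6.2e-04. Without DMSO replicate 1 the log2 fold change was -0.38 (edgeR adjusted p = 1.7e-05).

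ACSL4 (ENSG00000068366) lies on the minus strand of chromosome X at 109624244 to 109733403. Its level was 129, 102, 116 and 119 CPM in DMSO replicates 1 to 4 and 92.5, 100.5, 93.6 and 114 CPM in the MANIO replicates. The groups overlapped, with DMSO replicate 2 under MANIO replicate 4. ACSL4 had a log2 fold change of -0.22 (SE 0.0772, edgeR adjusted p = 0.0265), and this call was near the threshold. It was lost in 6 of the 8 fits with 1 library left out, where the edgeR adjusted p of ACSL4 ran from 0.00267 to 0.0841. Only the fits without DMSO replicate 2 and without MANIO replicate 4 kept it. The count ratio of ACSL4 to GPX4 within each library was 0.560 ± 0.0989 in DMSO and 0.596 ± 0.0842 in MANIO (SD, n = 4 each), with overlapping groups.

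The last group moves and stores iron, and of its 4 members TFRC and FTL were lower, NCOA4 was higher and FTH1 did not pass. TFRC (ENSG00000072274) lies on the minus strand of chromosome 3 at 196027183 to 196082189. Its level was 447, 452, 399.8 and 382 CPM in DMSO replicates 1 to 4 and 288, 351, 294 and 317 CPM in the MANIO replicates. Each MANIO library was under each DMSO library, the closest being DMSO replicate 4 and MANIO replicate 2. TFRC fell by 0.43 on the log2 scale (SE 0.0719; 95% interval -0.58 to -0.27; edgeR adjusted p = 1.4e-04). It was the largest fall of the 9 genes, yet 12.5% of all tested genes had a lower log2 fold change than TFRC.

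FTH1 (ENSG00000167996; chromosome 11, 61959718 to 61967660, minus strand) encodes the ferritin heavy chain, which oxidises iron for storage. Its level was 806, 908, 873 and 891 CPM in DMSO replicates 1 to 4 and 896, 897, 1001 and 856 CPM in the MANIO replicates. The groups were mixed, and only MANIO replicate 3 lay above all DMSO libraries. FTH1 had a log2 fold change of 0.07 (95% interval -0.06 to 0.20; edgeR adjusted p = 0.352). FTL (ENSG00000087086; chromosome 19, 48965301 to 48966878, plus strand) encodes the light chain. Its level was 1149, 1348, 1305 and 1257 CPM in DMSO and 1089, 1069, 1066 and 1051 CPM in MANIO, in the order of the replicates. The MANIO libraries were close together and all under DMSO, whose replicate 1 was again the nearest to them. FTL fell by 0.24 on the log2 scale (SE 0.0579; 95% interval -0.37 to -0.12; edgeR adjusted p = 0.00237).

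The 2 ferritin chains can also be set against each other inside a library, where the scaling between libraries drops out. The count ratio of FTH1 to FTL was 0.701, 0.674, 0.669 and 0.709 in DMSO replicates 1 to 4 and 0.823, 0.839, 0.939 and 0.815 in the MANIO replicates. It was higher in all 4 MANIO libraries than in any DMSO library, 0.854 ± 0.0578 against 0.688 ± 0.0198 (SD, n = 4 each), and is given as a description with no test. Unequal movement of the 2 chains is all that such a ratio shows. In FTH1, 62.4% of the exonic bases overlap BEST1 on the opposite strand, and as for GLS2 reads from the shared bases cannot be assigned to either gene. BEST1 had 9 to 46 counts per library, so few shared reads were counted for BEST1. Whether the rest were left out or counted for FTH1 is not shown by these counts. Processed pseudogene rows, 16 for FTH1 and 3 for FTL, held 0.217% and 0.141% as many counts as the genes themselves, and adding them left the log2 fold changes at 0.07 and -0.24. How reads matching a gene and its pseudogenes alike were counted was not stated.

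NCOA4 (ENSG00000266412; chromosome 10, 46005088 to 46030714, minus strand) encodes the receptor that delivers ferritin to autophagosomes. Its level was 226, 199.99, 189.6 and 186 CPM in DMSO replicates 1 to 4 and 271, 269.6, 236 and 261 CPM in the MANIO replicates. The groups were apart, with MANIO higher, the nearest pair being DMSO replicate 1 and MANIO replicate 3. NCOA4 rose by 0.37 on the log2 scale, a 1.29-fold change (SE 0.0664; 95% interval 0.23 to 0.51; edgeR adjusted p = 2.4e-04). Relative to the summed ferritin counts, NCOA4 was 0.0945 ± 0.0140 in DMSO and 0.131 ± 0.0114 in MANIO, where DMSO replicate 1 reached the lowest MANIO value. TFRC relative to the same sum was 0.198 ± 0.0227 in DMSO and 0.158 ± 0.0174 in MANIO, and those groups overlapped as well. A stricter edgeR test (glmTreat), which asks for a change beyond 1.2-fold and called 26.3% of all tested genes, called FDXR and TFRC. NCOA4 (adjusted p = 0.0642), GPX4 (0.215), FTL (0.684) and ACSL4 (0.791) were not.

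**Figure D3:**
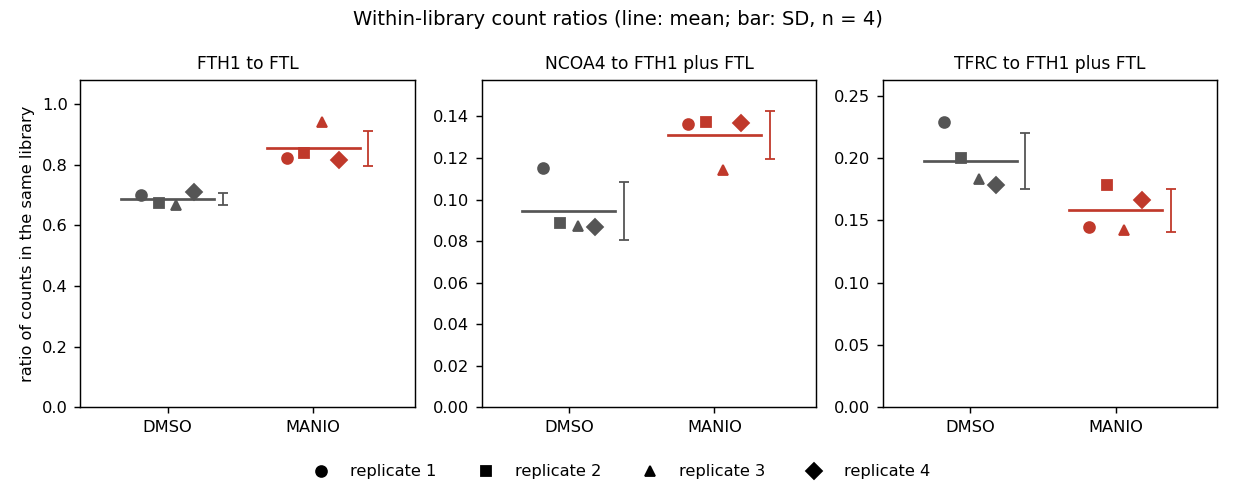
Count ratios within each library (vertical axes, each from 0) for FTH1 to FTL, NCOA4 to the sum of FTH1 and FTL, and TFRC to that sum, with 1 symbol shape per replicate number, the mean as a line and the SD as a bar. The FTH1 to FTL ratio lies between 0.669 and 0.709 in DMSO and between 0.815 and 0.939 in MANIO, while the other 2 ratios overlap between the groups.

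The ferritin and transferrin receptor messages carry iron-responsive elements, hairpins bound by the iron regulatory proteins ACO1 and IREB2 when iron is scarce. Binding blocks translation of the ferritin messages from their 5′ end and protects the TFRC message from decay at its 3′ end. The elements are printed because, among the 10 genes, the search found them in these 3 iron genes only. All protein-coding transcripts of GENCODE 29 were searched on the sense strand for a C, 5 bases, CAGTG followed by A, C or T, and 5 bases that pair with the first 5 (G-U pairs allowed). Such an element was found in 214 of 19684 genes (1.09%). Among the 10 genes it was found in FTH1 and FTL, once each in the 5′ UTR, and in TFRC, 4 times in the 3′ UTR. An element that departs from this pattern would be missed, so these are counts of matches only. Each is shown 5′ to 3′ as DNA letters with the loop in capitals. On GRCh38, FTH1 lies on chromosome 11 at 61967574 to 61967602 (minus strand) and FTL on chromosome 19 at 48965335 to 48965363 (plus strand). The TFRC elements, labelled a to d here, lie on chromosome 3 (minus strand), with lowest positions 196050979, 196050575, 196050510 and 196050463:
FTH1: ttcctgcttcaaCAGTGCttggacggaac
FTL: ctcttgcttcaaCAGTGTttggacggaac
TFRC a: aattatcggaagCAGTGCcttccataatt
TFRC b: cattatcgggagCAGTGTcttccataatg
TFRC c: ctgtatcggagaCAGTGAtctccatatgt
TFRC d: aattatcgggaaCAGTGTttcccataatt
The first 5 letters of each loop were required by the search. FTH1 and FTL both carry the element near their 5′ end, while FTL fell and FTH1 had an interval that reaches from -0.06 to 0.20. The counts measure message level, so translation of the ferritin messages was not measured.

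Levels can be compared between genes per kilobase of merged exon. In DMSO the order was FTL (1441 ± 97.7 CPM per kb), FTH1 (428 ± 22.02), SAT1 (306 ± 56.4), GPX4 (104 ± 8.93), TFRC (53.3 ± 4.38), NCOA4 (49.1 ± 4.36), FDXR (30.2 ± 2.01), ACSL4 (18.1 ± 1.73), AIFM2 (9.504 ± 0.515) and GLS2 (0.0104 ± 0.00776). Only the neighbours TFRC and NCOA4 overlapped in that order. In MANIO, FDXR stood in the fourth place with 93.7 ± 7.43 CPM per kb and overlapped GPX4 at 83.5 ± 3.67, and NCOA4 (63.6 ± 3.995) was above TFRC (39.6 ± 3.63) with no overlap. The exonic length counts every annotated exon, and the transcript forms in use were not measured. It includes the bases shared with other genes, 62.4% in FTH1 and 82.8% in GLS2, so the levels per kb of these 2 genes are too low if shared reads were left uncounted, and the place of FTH1 in the order is uncertain to that extent.

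The remaining genes are shown by lists of the same pathways. Of 141 tested genes on 7 lists, 30 rose, 60 fell and 51 did not pass, and their median change was -0.10 on the log2 scale. Over all tested genes 27.8% were higher and 26.8% lower, 54.6% in all, and the share called in each list is to be read against these. The counts describe the lists and were not tested as sets.

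Among 21 tested genes of iron-sulfur cluster assembly, the pathway that FDXR feeds, 4 rose, 8 fell and 9 did not pass (median log2 fold change -0.04, 57.1% called). ISCU, the scaffold on which clusters are built, rose by 0.85 on the log2 scale, from 65.6 ± 3.93 to 118 ± 5.92 CPM (edgeR adjusted p = 2.0e-08). NUBP1, a scaffold of the cytosolic machinery, fell by 0.60 and ISCA2, a late-acting mitochondrial assembly factor, fell by 0.51 on the log2 scale. In NUBP1 36.1% of the exonic bases overlap another gene. FDX1, a ferredoxin that takes electrons from FDXR, was chosen after its value was seen. The log2 difference of FDX1 was 0.01 (edgeR adjusted p = 0.942). The count ratio of FDXR to FDX1 was 4.92 ± 0.649 in DMSO and 15.2 ± 1.73 in MANIO (SD, n = 4 each), with no overlap. FDX2, the second ferredoxin gene, did not pass the filter, and 70.9% of its exonic bases overlap another gene.

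Of 24 tested genes of iron transport and sensing, 6 rose, 8 fell and 10 did not pass (list median 0.03, 58.3% called). PROM2, a membrane protein known to promote export of ferritin in vesicles, rose by 1.73 on the log2 scale, from 14.6 ± 0.725 to 48.2 ± 3.04 CPM (edgeR adjusted p = 4.6e-11). HFE, a partner of the transferrin receptor, fell by 0.73, and PCBP1, an iron chaperone that loads ferritin, fell by 0.48 on the log2 scale. In PCBP1 52.2% of the exonic bases overlap an antisense gene. Several genes were named after their values were seen because they control or parallel TFRC and ferritin. The iron regulatory protein genes ACO1 and IREB2 had log2 fold changes of -0.27 (edgeR adjusted p = 0.00164) and 0.14 (edgeR adjusted p = 0.0573). SLC11A2, the importer DMT1, fell by 0.44 on the log2 scale, STEAP3, which reduces endosomal iron, rose by 0.43, and TFR2, the second transferrin receptor, rose by 0.39. HMOX1, which frees iron from haem, had a log2 difference of 0.06 (edgeR adjusted p = 0.404).

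Of 29 tested genes of defence against lipid peroxides, 5 rose, 14 fell and 10 did not pass (median -0.18, 65.5% called). PDSS2 (-0.85), a subunit of the enzyme that builds the coenzyme Q tail, SECISBP2 (-0.67), which lets ribosomes insert selenocysteine, and EEFSEC (-0.72), the elongation factor for selenocysteine, fell. Whether the falls of SECISBP2 and EEFSEC play a part in the level of GPX4, itself a selenoprotein gene, was not tested. SLC7A11, named after its value was seen as the known p53-repressed gene of this list, went from 101 ± 5.11 to 71.0 ± 8.62 CPM, a log2 difference of -0.51 (edgeR adjusted p = 4.5e-05). GCH1, which supplies the antioxidant tetrahydrobiopterin, rose by 0.50 on the log2 scale and was likewise named afterwards.

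Of 26 tested genes of lipid supply and peroxidation, 7 rose, 12 fell and 7 did not pass (median -0.11, 73.1% called). SCD, the desaturase that makes monounsaturated fatty acids, went from 3139 ± 155 to 1334 ± 69.4 CPM (-1.23), and ACSL3, which activates such fatty acids, from 232 ± 10.2 to 128 ± 11.2 CPM (-0.86). ALOX5, a lipoxygenase that oxidises polyunsaturated fatty acids, went from 1.62 ± 0.528 to 6.07 ± 0.371 CPM (1.91). All 3 passed edgeR's test, with adjusted p of 5.9e-10, 3.9e-08 and 2.2e-07. ALOX15, the lipoxygenase known to act downstream of SAT1, was named afterwards and had a log2 fold change of 0.75 at 0.463 ± 0.146 and 0.779 ± 0.416 CPM (edgeR adjusted p = 0.0827).

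Of 15 tested genes of polyamine turnover, the pathway of SAT1, 1 rose, 5 fell and 9 did not pass (median -0.05, 40.0% called). DHPS, which uses spermidine to modify the factor eIF5A, fell by 0.46 on the log2 scale, OAZ1, the antizyme that restrains polyamine synthesis, by 0.39 and SMS, spermine synthase, by 0.28. In DHPS 41.8% of the exonic bases overlap other genes. The 1 gene that rose was SAT2, the SAT1 paralogue, at 0.26.

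Of 14 tested genes of glutamine use, 4 rose, 7 fell and 3 did not pass (median -0.18, 78.6% called). The glutamine transporter genes SLC38A2 and SLC38A1 fell by 0.45 and by 0.34 on the log2 scale. Of 12 tested genes that share a gene-family name with AIFM2, GPX4, ACSL4 or NCOA4, 3 rose, 6 fell and 3 did not pass (median -0.15, 75.0% called). GPX1, the cytosolic glutathione peroxidase, rose by 0.50 on the log2 scale where GPX4 fell, and NCOA1, a nuclear receptor coactivator, fell by 0.65.

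**Figure D4:**
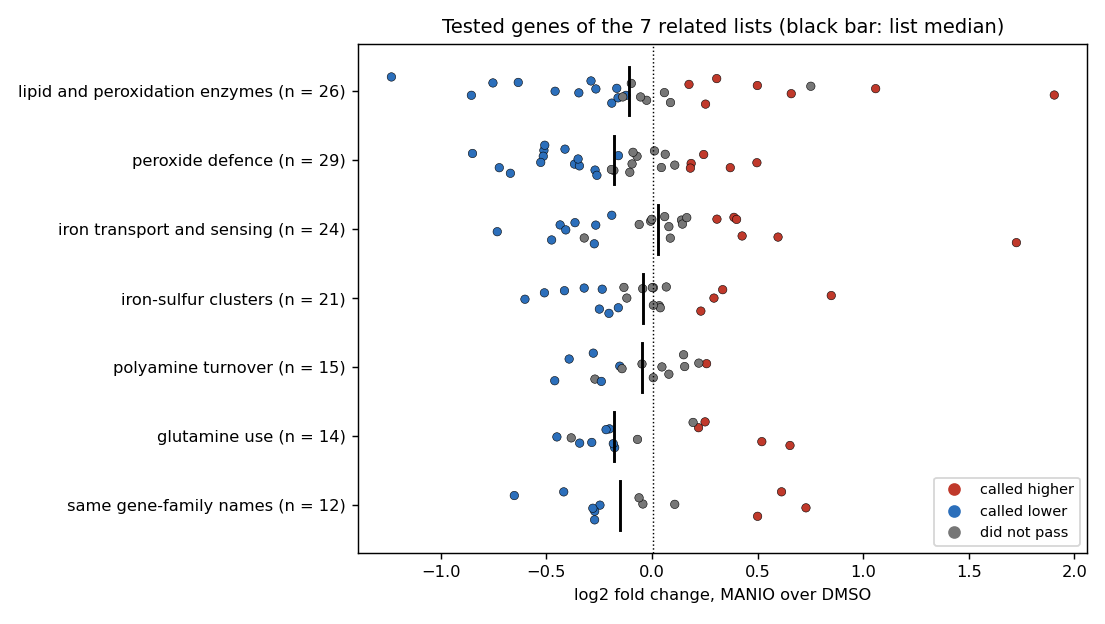
Log2 fold change of MANIO over DMSO (horizontal axis) for the tested genes of the 7 related lists, 1 point per gene coloured by call, with the list median as a black bar and the median of all tested genes as a dotted line. List medians lie between -0.18 and 0.03, and the points farthest to the right are ALOX5 at 1.91 and PROM2 at 1.73.

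The genes whose levels followed FDXR most closely over the 8 libraries, by Pearson's r of log2 CPM, were IFFO2 (0.9993), CDIP1 (0.9986) and CDKN1A (0.998). Their log2 fold changes were 0.62, 1.82 and 2.43. Such values are set mostly by the difference between the groups, which these libraries share, and are a description.

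**Figure D5:**
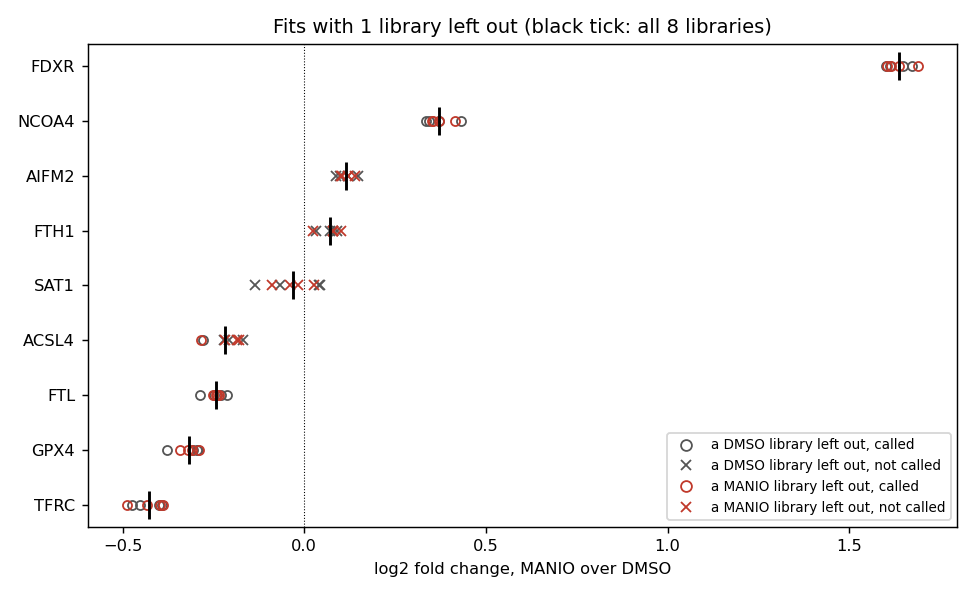
Log2 fold change (horizontal axis) of the 9 tested genes in the 8 fits that each left out 1 library, as circles where the gene was called and crosses where it was not, with the value from all 8 libraries as a black tick. FDXR stays between 1.602 and 1.69, ACSL4 is a cross in 6 of 8 fits, and SAT1 lies on both sides of 0.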

How the data were processed

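RNA from 4 DMSO and 4 MANIO cultures had been made into Illumina TruSeq RNA version 2 libraries, per the labels' protocols. The authors deposited raw read counts for 58302 Ensembl genes. Per the submitters' processing notes, the build was GRCh38 and the tools included STAR 2.5.3a, HTSeq, FastQC 1.3 and DESeq2, with no roles stated. Not given in the sources used here are how multiply matching reads were treated, the strand setting and the annotation release. Raw counts were fitted in R 4.3.3 with edgeR 4.0.16: filterByExpr (15712 genes kept), TMM scaling, a robust quasi-likelihood F test of group alone and Benjamini-Hochberg adjustment over all tested genes. A fold change is the MANIO level over that of DMSO. Its standard error comes from the F statistic and its 95% interval from t quantiles. Positions, exonic lengths and overlaps come from GENCODE 29. On simulated counts for this comparison (15563 genes tested), 26% of genes changed 1.2-fold and 93.9% of those changed 2-fold were recovered. The simulation changed at most 50 tested genes at each fold size and gave 163 calls, 14 of them false. The data gave 8574 calls. With fewer changed genes the adjustment is stricter, so these shares do not give the recovery in the data.

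The members and lists were chosen with earlier results of these data known. The named genes are the members, CDKN1A and MDM2, the 3 genes of smallest p per list (2 among genes of the members' family names) and the 3 genes most like the member of smallest p. Others are marked as named afterwards. One gene that this rule names is not reported here. Alternatives were other scalings, filters, dispersion settings, DESeq2 1.42.0, limma-voom (limma 3.58.1), a replicate block, a 1.2-fold limit, summed pseudogene rows and each library left out. Chi-square per degree of freedom between replicates of a group was 3.60 to 24.4, above sampling noise, so none was a copy of another. In bulk samples, fewer cells of a type and less RNA per cell cannot be told apart.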

Additional observations from a re-analysis of the deposited data

Results flagged for a closer look

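Within groups of 4, a library was flagged where its gap to the next exceeded the share of the group's range that Dixon's 95% critical value allows, which chance gives in about 1 of 20 groups. Of the 72 groups examined, 4 were flagged, which is close to that share. The level of GPX4 in DMSO replicate 1 was 183 CPM, under the other DMSO libraries at 215 to 221 CPM. The same library had the highest mitochondrial share of its group, 7.48%. Whether that share plays a part in the GPX4 level was not tested. In MANIO replicate 4, CDKN1A was 1257 CPM and CDIP1 was 11.3 CPM, both the lowest of the group. FDXR was also lowest there, at 299.9 CPM, without being flagged. CDIP1 and CDKN1A were among the genes that followed FDXR most closely over the libraries, a likeness set mostly by the difference between the groups. These lows all lie in MANIO replicate 4, and whether they are separate observations was not tested.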

How the results depend on the processing

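Other scalings, filters, dispersion settings, DESeq2 and limma-voom, together with summed pseudogene rows where they apply, kept the direction and the call of all 9 tested members. The 1.2-fold limit did not: 4132 genes were called against 8574, 1 member (FDXR) was called higher and 1 (TFRC) lower. Under that limit the lists had 9 calls of 19 for defence, 2 of 11 for glutamine, 4 of 12 for iron-sulfur assembly, 8 of 14 for iron transport, 4 of 9 for genes of the members' family names, 7 of 19 for peroxidation and 2 of 6 for polyamines. Of the other fits of the 24 named genes that are no members, 430 kept direction and call and 2 did not, SLC38A1 and SMS under that limit.

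With 1 library left out, 7818 to 8622 genes were called, with 2 members higher and 3 to 4 lower. SAT1 ranged from a log2 fold change of -0.14 to 0.04, and turned positive without DMSO replicate 1 (0.04), DMSO replicate 4 (0.0443) and MANIO replicate 2 (0.03). With the replicate block 8845 genes and the same numbers of members were called, with FDXR at 1.63. Deviations of same-numbered libraries correlated weakly (0.0385 to 0.163, against -0.31 to 0.29 between different numbers). Only 2 of 8 libraries correlated best with their own number, so the number was not taken as a pairing over all genes. SAT1 did rank alike by replicate number in both groups, and its SE was 0.0569 with the block and 0.121 without. GLS2 had 5 counts in all DMSO libraries together. Whether depth, a low level or reads lost over bases shared with other genes lies behind that count was not tested. On simulated counts, where far fewer genes changed than were called in the data, 26% of 1.2-fold changes were recovered. That share does not carry over to the data, and how depth and replicate spread share in it was not tested.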
